A study of Oryza sativa with 4 samples.

Results

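The genes described here are those read at 5 FPKM or more in flag leaf blades of the rice mutant d1 and at least 4-fold higher there than in the wild type. FPKM is a fragment count divided by transcript length and by the number of mapped fragments. Of 35590 gene identifiers in the table, 13792 reached 5 FPKM in d1, and 107 of these were at or past 4-fold. The 107 genes were chosen on their WT and d1 values, so the difference itself is a description and carries no test. The study has 4 libraries, 2 of WT (cultivar TC65) and 2 of d1 (allele d1-1), all from flag leaves cut where the blade is widest. Plants of both genotypes grew singly in pots in a greenhouse, with 16 h of light a day and no further treatment named. The labels give their age as 2 months and also as 100 days of growth. The labels do not say whether d1-1 was in the TC65 background or whether replicate libraries came from separate plants.

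The mutated gene of d1 is RGA1, which encodes the alpha subunit of a heterotrimeric G protein. Such proteins sit at the plasma membrane and pass signals on from the cell surface when the alpha subunit exchanges GDP for GTP and parts from the beta and gamma subunits. Plants with d1 lesions are dwarfed, with dark, broad, upright leaves and short grains. The contrast of d1 with WT compares leaf transcript levels between plants that differ in RGA1. As the labels do not say whether the mutant was in the WT background, other genomic differences may enter the contrast too. The part of RGA1 itself in the differences described here was not tested.

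The table gives 1 FPKM value per genotype, combined by the authors over its 2 libraries, so no spread between libraries is known and no SD can be given. The labels state about 40000000 reads of 150 bp per library. How many mapped reads stand behind an FPKM value is unknown. Genes are identified by locus identifiers, and none of the 107 matched the reference table, so neither names nor functions are given for them. The leaf markers could not be checked for the same reason. Identifiers are spelled as in the file, where the second letter is in either case. The first number in an identifier is the chromosome, and the last digits run along it. In the text, "called" means a q-value under 0.05 in the authors' deposited table. RGA1 (OS05G0333200, an identifier entered from general knowledge) stood at 20.7 FPKM in WT against 17.3 in d1, with q = 0.296 in the authors' deposited table, and is not among the 107.

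Most of the 107 genes were low in WT. Their median rested at 2.26 FPKM in WT against 18.6 in d1. The median of all 13792 genes past the level limit was 18.5 FPKM in WT against 18.2 in d1. In the mutant, then, the 107 genes stood at an ordinary level for a detected leaf gene, and in WT well below it. The WT side follows from the rule, which holds each WT value at or under the d1 value divided by 4. By WT value, 4 were listed at 0, 23 lay above 0 and under 1 FPKM, 39 lay from 1 up to 5 FPKM and 41 were at 5 FPKM or more. Every gene at 5 FPKM or more in d1 and under 1 FPKM in WT is necessarily a member, and there were 27 of these. At the upper end, 18 of the 107 reached 100 FPKM in d1, 54 lay from 10 up to 100 FPKM, and 35 lay under 10 FPKM.

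**Figure D1:**
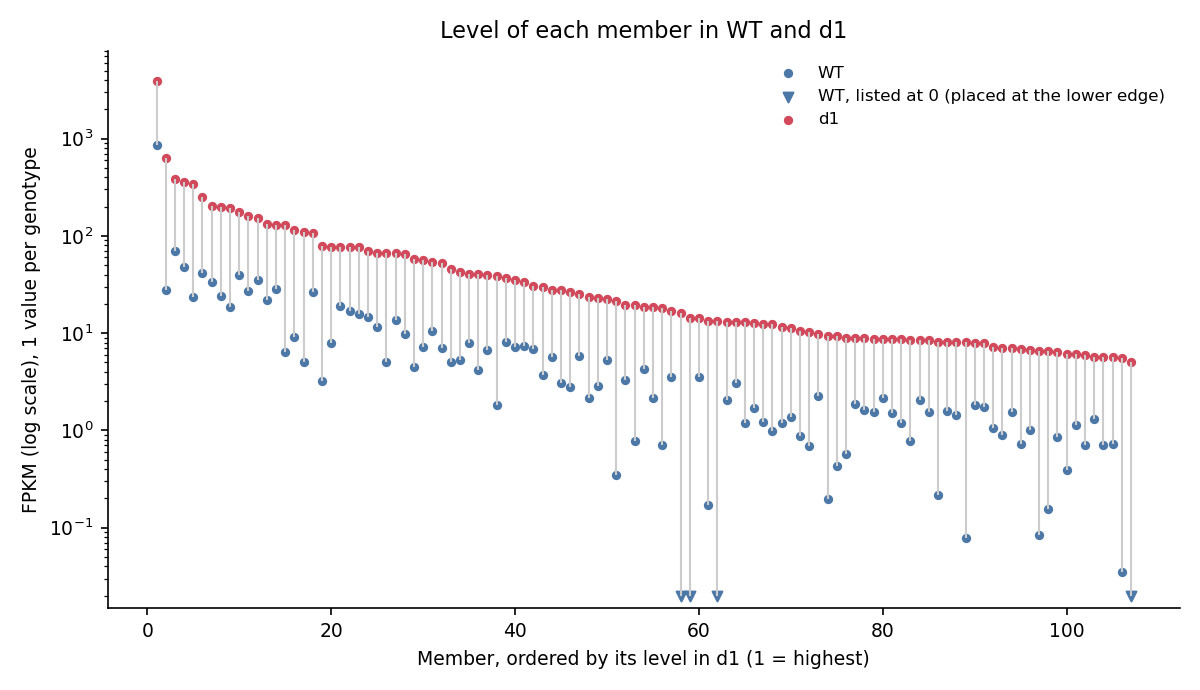
Level of each of the 107 genes in WT (blue) and d1 (red), in FPKM on a log scale, ordered by the d1 value and joined by a line, with 1 value per genotype and no error bar. The 4 genes listed at 0 in WT are drawn as triangles at the lower edge, and the 18 genes on the left reach 100 FPKM or more in d1.

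The genes at least 4-fold higher occurred at all levels. They made up 0.967% of the genes from 5 up to 10 FPKM in d1, and 0.560% and 0.532% of those from 10 up to 20 and from 20 up to 50 FPKM. The share was 0.989% from 50 up to 100 FPKM, 1.57% from 100 up to 200 FPKM and 1.08% from 200 up to 500 FPKM. At 500 FPKM or more, 2 of 269 genes belonged to the group. No level class therefore held more than a small part of its genes in the group. The highest share, from 100 up to 200 FPKM, rested on 11 of 702 genes, and the shares above 200 FPKM were lower. The d1 value that sets the classes also entered the rule. Over all levels the share was 0.776%.

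A few abundant transcripts carried most of the summed level. The 107 genes together held 1654 FPKM in WT against 9814 in d1, which was 0.144% and 0.710% of the FPKM of the whole table. The largest contributor was OS07G0142100, with a WT level of 860 FPKM and a d1 level of 3915 FPKM. It alone made up 52.0% of the group's WT sum and 39.9% of its d1 sum. Without it, the WT sum was 794 FPKM and the d1 sum 5899.7 FPKM, so the ratio of the sums went from 5.93 to 7.43.

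The next most abundant was OS03G0782200, with 27.9 FPKM in WT against 637 in d1, a 22.9-fold difference. With a test statistic of 16.1 in the authors' deposited table, it stood highest among the 103 genes that have one. OS12G0236100 went from 23.7 to 342.7 FPKM, or 14.5-fold. These 2 genes combined a high level in d1 with a difference far past the limit. OS04G0678700 (69.6 and 388 FPKM), OS05G0375400 (48.0 and 362 FPKM) and Os02G0649900 (41.9 and 248 FPKM) were all already above 40 FPKM in WT and differed by 5.57-fold, 7.54-fold and 5.93-fold. The remaining genes of the 10 highest in d1 were Os01G0952800 (33.4 and 201 FPKM), OS10G0195250 (24.3 and 199 FPKM), OS07G0258400 (18.6 and 194 FPKM) and OS04G0401000 (39.4 and 176 FPKM). All 10 were called, each with q = 0.000186 in the authors' deposited table, and together they held 67.9% of the group's d1 sum.

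**Figure D2:**
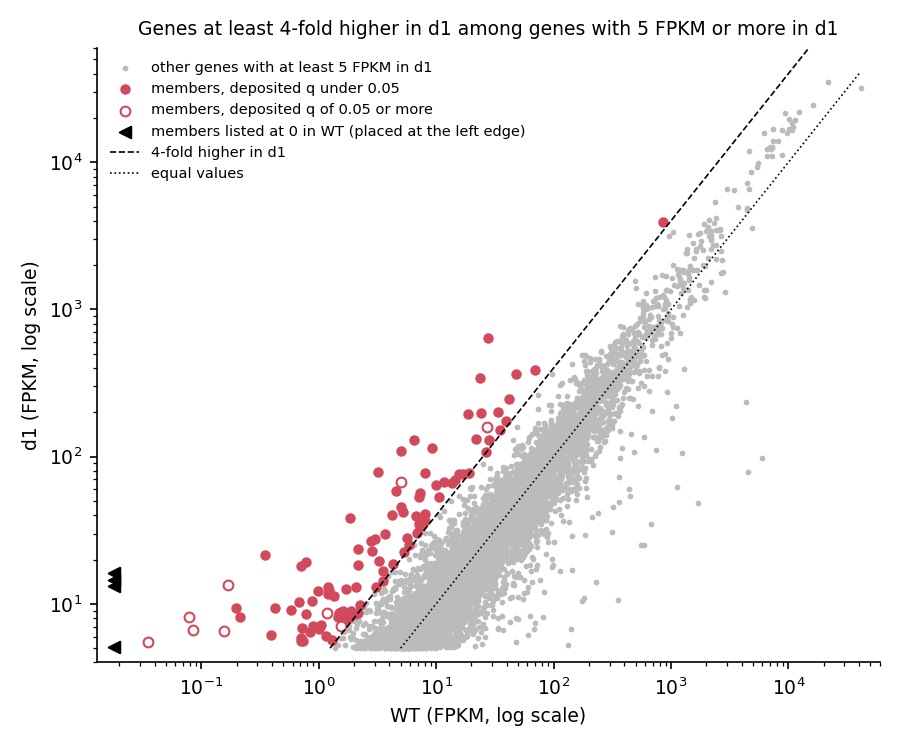
FPKM in WT (horizontal) against d1 (vertical), both on log scales, for genes with 5 FPKM or more in d1. Red points are the genes at least 4-fold higher, open where the deposited q-value was 0.05 or more, and triangles at the left edge are the 4 listed at 0 in WT. OS07G0142100 is the red point at 860 and 3915 FPKM, far to the right of the others.

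Below these, 8 more genes reached 100 FPKM in d1. The WT levels of OS03G0766800 (34.9 and 151 FPKM), Os01G0444100 (28.3 and 129 FPKM), Os04G0282400 (26.4 and 108 FPKM) and OS11G0262600 (21.9 and 132 FPKM) were all above 20 FPKM, and OS03G0659266 was read at 27.0 and 159 FPKM without passing. By contrast OS12G0236225, Os05G0217800 and OS07G0142200 were under 10 FPKM in WT and differed by more than 10-fold. Among genes that did not reach 100 FPKM, OS01G0850700 (3.22 and 78.3 FPKM, 24.3-fold) and OS01G0611000 (1.84 and 38.3 FPKM, 20.9-fold) joined a WT level above 1 FPKM to a difference above 16-fold. All of the genes named in this paragraph other than OS03G0659266 were called.

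Among the 103 genes above 0 in WT, the median difference was 7.34-fold, with quartiles of 4.82-fold and 11.0-fold. Between 4-fold and 5-fold there were 29 genes, from 5-fold up to 8-fold 30, from 8-fold up to 16-fold 28, and 16-fold or more 16. The limit cut through a continuous range. Just inside it were OS02G0759400 (3.55 and 14.2 FPKM), OS01G0760000 (2.15 and 8.68 FPKM) and OS06G0157000 (18.9 and 76.9 FPKM), and just outside it OS08G0500900 (3.88 and 15.5 FPKM), OS09G0451000 (2.54 and 10.1 FPKM) and Os02G0744600 (2.42 and 9.56 FPKM). At the level limit, Os03G0560200 (5.07 FPKM in d1), Os05G0281400 (5.54 FPKM) and Os10G0109300 (5.63 FPKM) were just inside. Just outside were OS07G0480800 (4.97 FPKM), OS08G0415400 (4.85 FPKM) and OS03G0341600 (4.76 FPKM). The median log2 ratio over all 107, with the 4 genes at 0 in WT placed above the rest, was 2.91, against -0.02 over all tested genes. If the FPKM sums of the genotypes are set equal, every log2 ratio falls by 0.27 and 76 of the 107 genes still meet the rule.

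The largest ratios belonged to genes almost unread in WT. Os05G0281400 went from 0.0351 to 5.54 FPKM (158-fold), OS02G0677300 from 0.0785 to 8.11 FPKM (103-fold), Os03G0293700 from 0.170 to 13.5 FPKM (79.2-fold) and OS09G0522100 from 0.0846 to 6.62 FPKM (78.3-fold). None of these 4 was called, their q-values in the authors' deposited table being 0.355, 0.0691, 0.227 and 0.262. OS12G0282000 followed, from 0.347 to 21.5 FPKM (62.1-fold), and was called with q = 0.000186 in the authors' deposited table. It therefore had the largest ratio above a WT value of 0 among the called genes. OS09G0451400 (0.199 to 9.35 FPKM), OS03G0760800 (0.216 to 8.20 FPKM), OS03G0251000 (0.713 to 18.1 FPKM) and OS11G0539200 (0.785 to 19.3 FPKM) were called as well, with differences of 47.0, 38.0, 25.4 and 24.6-fold. The other gene of the 10 largest ratios, OS03G0302850, was read at 0.156 and 6.57 FPKM and was not called (q = 0.328 in the authors' deposited table). A ratio over so low a WT value moves greatly with small changes of that value.

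In the authors' test, 98 of the 107 genes were called higher, or 91.6%. The background was 7.24% of all 23672 tested rows called higher, and 10.1% of the genes with at least 5 FPKM in d1. Since the choice of the genes used the same contrast, nothing is read from this difference. For 78 of the 107 the p-value was the smallest in the authors' deposited table, p = 5e-05. With the Benjamini-Hochberg adjustment recomputed over all tested rows, 95 of the 107 passed against a background of 5.09%, and at a deposited q under 0.01 there were 91 against 4.11%.

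The 9 genes that were not called were spread over levels from 5.54 to 159 FPKM in d1. OS03G0659266 was the most abundant of them, with 27.0 FPKM in WT against 159 in d1, and q = 0.0584 in the authors' deposited table. Os09G0522500 was read at 5.04 and 66.9 FPKM (q = 0.0547 in the authors' deposited table). Both were thus well above the level limit and just short of the threshold on the deposited q-value. Under the recomputed Benjamini-Hochberg adjustment their values were 0.130 and 0.124, further from it. Beside the 5 named above among the largest ratios, the other two were OS06G0335975 (1.18 and 8.63 FPKM) and Os04G0387000 (1.55 and 7.07 FPKM), with q = 0.0816 and q = 0.0739 in the authors' deposited table. Of the 6 genes above 0 and under 0.2 FPKM in WT, 1 was called. The test statistics of the 9 lay between 1.80 and 4.77 in the authors' deposited table, and 33 called genes had a statistic no higher than 4.77, so the call did not follow the statistic alone.

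The 4 genes listed at 0 in WT were OS05G0267800 (16.1 FPKM in d1), OS05G0235701 (14.4 FPKM), OS05G0309000 (13.3 FPKM) and Os03G0560200 (5.07 FPKM). All were called with q = 0.000186 in the authors' deposited table, which gives no test statistic for them. No fold is given for a gene listed at 0.

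By chromosome, the 107 genes were spread over all 12. Chromosome 1 held 21 of them (19.6%), beside 14.2% of genes with at least 5 FPKM in d1. Chromosome 5 held 14 (13.1%), beside 8.45%. Chromosome 8 held 2 (1.87%), beside 6.61%. Other chromosomes differed as well, with 10.3% of the group beside 8.38% of detected genes on chromosome 4, 6.54% beside 5.10% on chromosome 10, 11.2% beside 14.6% on chromosome 3 and 5.61% beside 8.13% on chromosome 6. The exact binomial 95% interval of the group's share covers counting error only. It takes the 107 genes as independent, although 31 of them stood directly next to another. The interval was 12.6% to 28.4% on chromosome 1 and 7.34% to 21.0% on chromosome 5, and both include the share of detected genes. On chromosome 8 it was 0.227% to 6.59%, which ends just under the 6.61% of detected genes. No adjustment was made for viewing 12 chromosomes. Relative to the genes with at least 5 FPKM in d1, the group's share ran from 0.219% on chromosome 8 to 1.20% on chromosome 5.

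**Figure D3:**
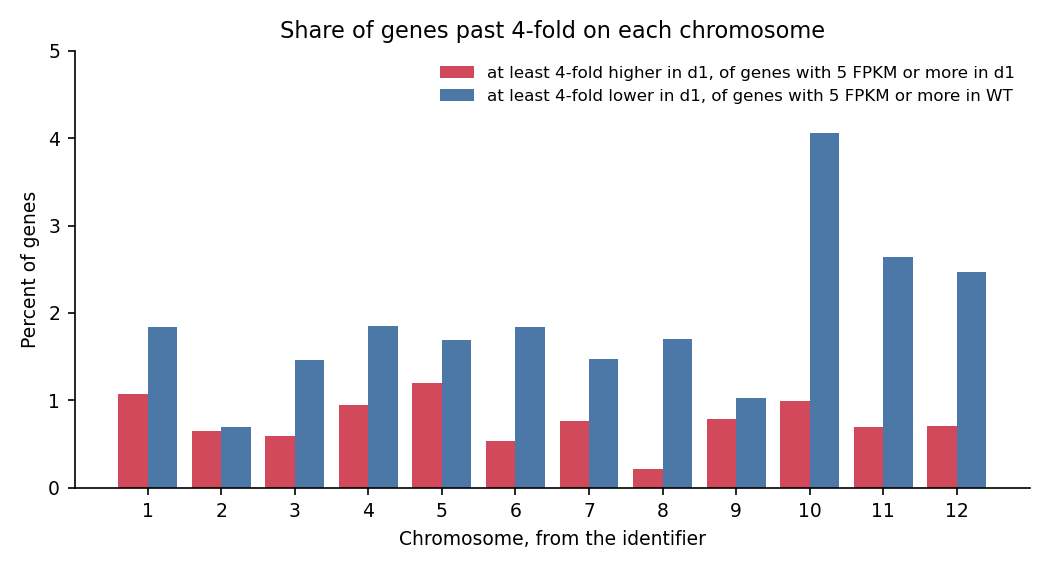
Percent of genes at least 4-fold higher in d1 (red, of genes with 5 FPKM or more in d1) and at least 4-fold lower in d1 (blue, of genes with 5 FPKM or more in WT) on each chromosome. The red bars run from 0.219% on chromosome 8 to 1.20% on chromosome 5, and the tallest blue bar is 4.06% on chromosome 10.

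On chromosome 5, where RGA1 lies, 8 of the 14 genes were within 400 loci of it, a window already known from an earlier look at these data. The 8 made up 2.53% of the 316 genes past the level limit in the window, against 0.706% of 850 on the rest of the chromosome and 0.737% of 12626 on the other chromosomes. Before RGA1 in identifier order lay Os05G0217800 (388 loci away), OS05G0235701 (332), OS05G0267800 (249), Os05G0281400 (193) and OS05G0309000 (108). The nearest 4 of these were listed at 0 or, for Os05G0281400, at 0.0351 FPKM in WT. Of all 107 genes, 7 were under 0.1 FPKM in WT, and 4 of those 7 lay in this stretch. The limit of 0.1 FPKM was not a planned setting. The whole window held 316 of the 13792 genes past the level limit. Os05G0281400 was not called (q = 0.355 in the authors' deposited table). Os05G0217800 was instead read in both genotypes, with 9.23 FPKM in WT against 115 in d1.

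After RGA1 lay Os05G0359966 (112 loci away, 1.45 and 8.20 FPKM), OS05G0375400 (203 loci, 48.0 and 362 FPKM) and Os05G0380900 (229 loci, 3.28 and 19.5 FPKM). All 3 were above 1 FPKM in WT, whereas the nearest 4 genes on the other side were under 0.1 FPKM there. Within 200 loci of RGA1 the count was 3, and within 800 loci it was 8, or 1.27% of 628 genes. Of the genes at least 4-fold lower in d1, 2 lay in the window of 400 loci, 0.645% of 310 genes with at least 5 FPKM in WT. Within 200 loci there was none of 163, and within 800 loci there were 9, or 1.42% of 632, which is above the 1.27% of the higher group in that window. The share of higher genes was thus above that of lower genes at 200 and 400 loci and not at 800. Over all chromosomes the shares were 0.776% higher and 1.73% lower, so the 2 groups are not directly comparable. Within 800 loci the 1.27% of higher genes stood beside 1.12% on the rest of the chromosome. Within 200 loci it was 1.85% beside 1.10%. No test was made on these positions.

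**Figure D4:**
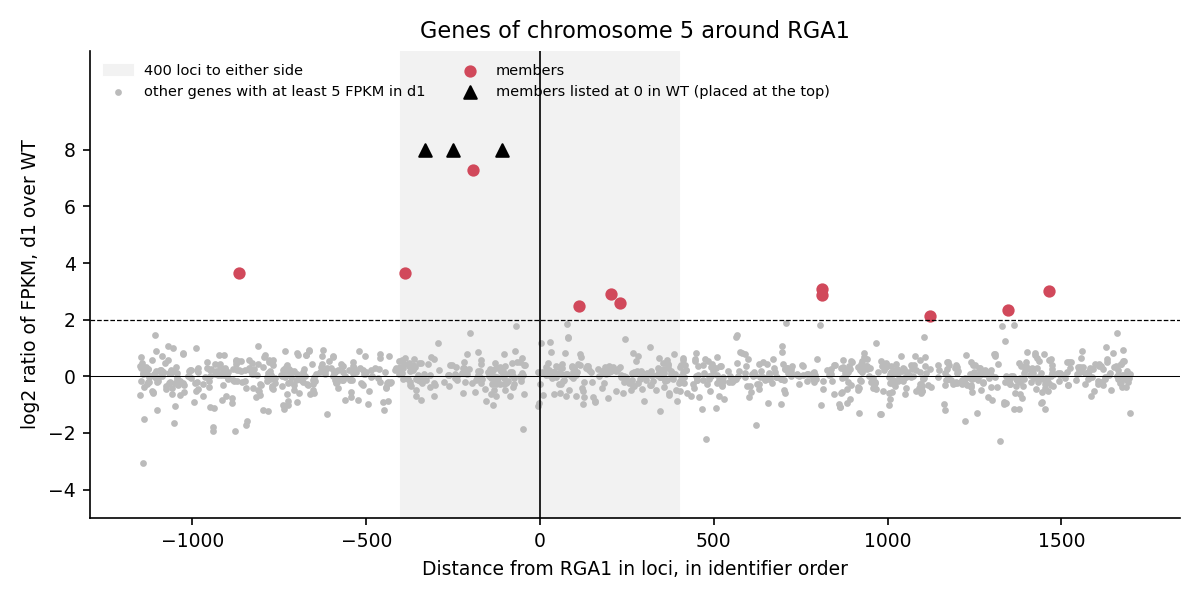
Log2 ratio of FPKM, d1 over WT, against distance from RGA1 in loci, for chromosome 5 genes with 5 FPKM or more in d1. Red points are genes at least 4-fold higher, triangles at the top are the 3 listed at 0 in WT, and the shaded window of 400 loci to either side holds 8 of the 14. Genes under 5 FPKM in d1 are left out, so some genes with strongly negative ratios are not shown.

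Many of the 107 genes were neighbours. In identifier order, 31 of them (29.0%) stood directly next to another, in 14 runs made up of 12 pairs, 1 run of 3 and 1 run of 4. Of 87 places next to a member that were held by a gene past the level limit, 34 were held by another member, or 39.1%, whereas 0.776% of all genes past that limit were members. Neighbouring copies of a gene can share reads, and overlapping loci cannot be told apart without strand, which the sources used here do not give. The part of shared reads in these runs was not tested.

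The run of 4 lay on chromosome 9. OS09G0522000 stood at 4.53 FPKM in WT against 58.1 in d1, OS09G0522100 at 0.0846 and 6.62 FPKM, Os09G0522200 at 2.17 and 23.7 FPKM, and Os09G0522500 at 5.04 and 66.9 FPKM. The differences of 3 of them were alike, at 12.8, 10.9 and 13.3-fold, and the second gene, the lowest in both genotypes, differed by 78.3-fold. OS09G0522000 and Os09G0522200 were called and the others were not. The loci on either side, OS09G0521900 (2.39 and 2.91 FPKM) and OS09G0522800 (0.647 and 1.09 FPKM), were not called.

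On chromosome 10, OS10G0555900 (5.24 and 42.4 FPKM), OS10G0556000 (7.28 and 56.8 FPKM) and Os10G0556100 (0.701 and 5.90 FPKM) differed by 8.08, 7.81 and 8.43-fold. Their levels in d1 spanned 9.62-fold, while their ratios were nearly equal, and all 3 were called. Of the flanking loci, OS10G0555700 (1.56 and 1.70 FPKM) was not called and Os10G0556200, far more abundant at 112 and 153 FPKM, was called higher with a 1.36-fold difference (q = 0.0432 in the authors' deposited table).

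Among the 12 pairs, all genes were called. In 1 pair both ratios were above 10-fold, that of OS12G0236100 with OS12G0236225 (6.44 and 129 FPKM, a log2 ratio of 4.32). It stood between loci that were called lower, Os12G0235800 at 17.1 and 7.63 FPKM and OS12G0236400 at 3.13 and 1.27 FPKM. OS07G0258400 and OS07G0258501 (7.09 and 53.1 FPKM) also followed a locus that was called lower, OS07G0258100, at 18.4 and 8.48 FPKM. The fourth flanking locus called lower was Os01G0663400, at 10.8 and 7.58 FPKM, after a pair on chromosome 1. The most unequal pair was OS07G0142100 with OS07G0142200, at 4.55-fold and 21.5-fold. The latter rose from 5.07 to 109 FPKM beside a neighbour that was 35.9 times as abundant in d1.

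On chromosome 4, OS04G0635400 (5.04 and 45.3 FPKM) and OS04G0635500 (14.5 and 69.2 FPKM) were adjacent. The locus before them, OS04G0635100, stood at 0.0677 and 1.56 FPKM and was not called. The one before that, OS04G0635000, was again a member, at 0.713 and 5.63 FPKM. A stretch of 4 loci thus held 3 members. Wider gaps joined few others. Counting members up to 5 loci apart as neighbours raised their number from 31 to 37, the added ones being OS04G0635000, Os06G0156650 (1.30 and 5.66 FPKM), Os01G0444100 with OS01G0495701 (6.83 and 30.4 FPKM), and OS11G0262600 with OS11G0264500 (11.7 and 67.0 FPKM).

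Of the remaining 8 pairs, 4 lay on chromosome 1. These were Os01G0186900 (5.66 and 28.1 FPKM) with Os01G0186950 (8.03 and 36.6 FPKM), OS01G0663051 (1.62 and 8.96 FPKM) with OS01G0663300 (0.903 and 7.07 FPKM), OS01G0823100 (1.72 and 7.84 FPKM) with Os01G0823150 (1.56 and 8.47 FPKM), and Os01G0952800 with Os01G0952900 (9.89 and 64.4 FPKM). The other 4 were OS03G0749500 (7.33 and 33.3 FPKM) with OS03G0749650 (13.8 and 66.1 FPKM), Os05G0477600 (1.71 and 12.6 FPKM) with OS05G0477666 (2.15 and 18.4 FPKM), OS06G0157000 (18.9 and 76.9 FPKM) with Os06G0157125 (17.0 and 76.4 FPKM), and Os07G0680600 (5.32 and 22.6 FPKM) with OS07G0680700 (3.08 and 13.01 FPKM). In 11 of the 14 runs the largest ratio was within 1.5 times the smallest, with a median of 1.18 times and a maximum of 7.15 times over all runs. The rule set a lower bound of 4-fold on every ratio, which by itself narrows their range.

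**Figure D5:**
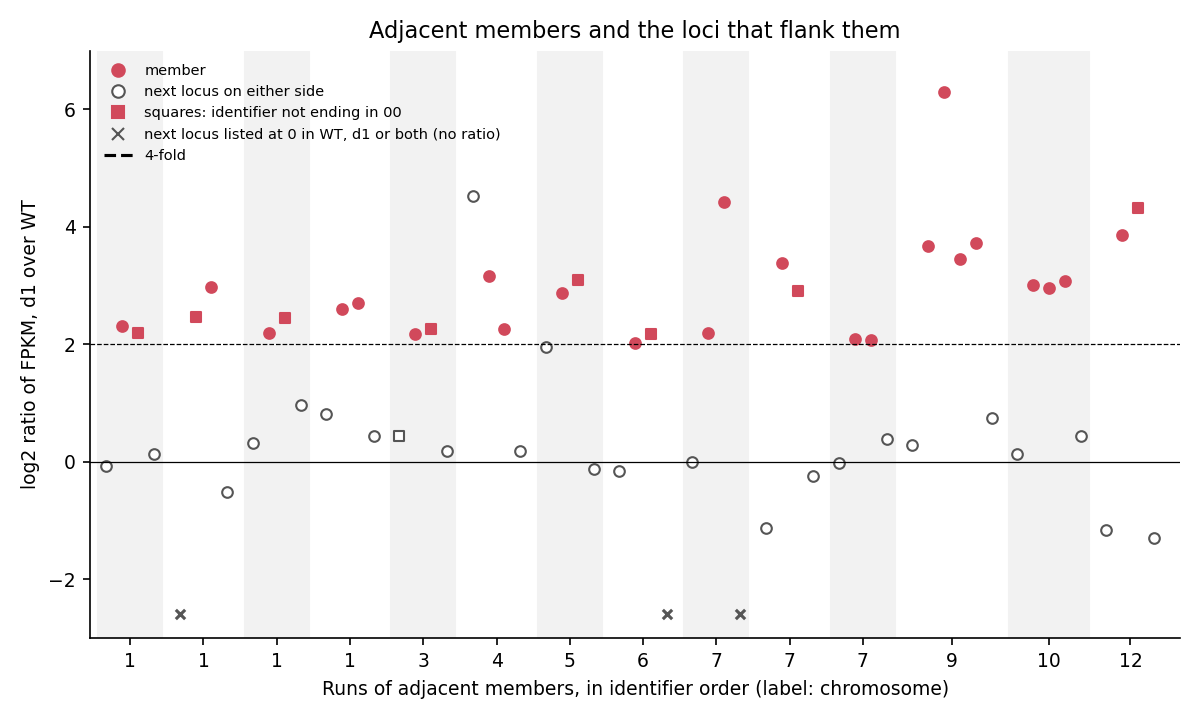
Log2 ratio of FPKM, d1 over WT, for the 14 runs of adjacent members (red) and the locus on either side of each run (open), in identifier order with the chromosome below. Crosses mark flanking loci listed at 0 in 1 or both genotypes. The members lie above the dashed 4-fold line by rule. Of the 24 tested flanking loci, 3 were called higher and 4 lower. Among these calls, Os10G0556200 (higher, q = 0.0432) and Os01G0663400 (lower, q = 0.0434) were near the threshold in the authors' deposited table. Among all tested genes that are not members, 6.86% were called higher and 12.1% lower.

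The loci next to any member that were not members themselves were also described. They were picked by their place beside genes that met the rule and by failing it themselves, so their values are not independent of it. Of the 118 tested, 24 were called higher in d1, or 20.3%, beside 6.86% of all 23543 tested genes that are not members, and 12 were called lower, or 10.2%, beside 12.1%. With the recomputed adjustment, 14.4% were called higher, beside 4.71%. Their median log2 ratio was 0.19, and 74 of the 115 read in both genotypes were above 0. The share called higher was 12.8% when loci up to 2 away were taken and 9.69% when loci up to 5 away were taken, so it was nearest to 6.86% in the widest band.

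Of the 107 identifiers, 21 (19.6%) did not end in 00, beside 1550 (11.2%) of the 13792 past the level limit, a difference that was not tested. By convention of this numbering, endings other than 00 are mostly loci placed between earlier ones. Of these 21, 8 stood in runs, 1 in each of 8 pairs, beside a member whose identifier ended in 00. The other 13 had no adjacent member. Whether the paired loci overlap was not tested. When identifiers not ending in 00 were left out, the number of members with an adjacent member went from 31 to 15. A drop follows from the step itself, which breaks up the 8 pairs and also leaves fewer members to count.

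Large differences in the other direction were more numerous. Under the mirrored rule, 245 genes were at least 4-fold lower in d1, 1.73% of 14173 genes with at least 5 FPKM in WT. The counts higher and lower were 445 and 883 at 2-fold, 167 and 366 at 3-fold, 48 and 98 at 8-fold, and 20 and 52 at 16-fold. The lower group held 33766 FPKM in WT, 2.95% of the table, whereas the 107 genes held 0.710% of it in d1. Of the lower group, 231 (94.3%) were called lower, against a background of 12.1%, and 2 were listed at 0 in d1. The share standing next to another of its kind was 28.6%, beside 29.0% of the 107 genes. These shares are not directly comparable, as the groups made up 1.73% and 0.776% of their detected genes. Of 230 places next to a gene of the lower group held by a gene past the WT level limit, 78 (33.9%) were held by another of that group. For the 107 genes that share was 39.1%. With 1 value per genotype, no test of these contrasts between the groups was possible.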

How the data were processed

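RNA of 4 flag leaf libraries, 2 per genotype, was sequenced, and 1 table was used. The submitters' processing notes name Cuffdiff, Cufflinks, TopHat2, Trimmomatic and FastQC and the build IRGSP-1.0, without versions, annotation or scaling. The FPKM values deposited by the authors are 1 per genotype over its 2 libraries. The test statistic, a signed score, and the p-value and q-value per gene are those the authors deposited. No test across libraries could be run, so p-values are theirs, and what they measure depends on how separate the libraries were. The depth of each library is unknown, so no share of reads or floor can be given.

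Log2 ratios were computed from the FPKM values, without a pseudocount. Of 61 repeated identifiers, the row with the highest d1 value was kept, and none is a member. Of 35590 identifiers, 1 matched the reference table (no member), so the planned classes by description were not used. Genes named are the 10 highest in d1, the 10 largest ratios above a WT value of 0, those listed at 0 in WT, adjacent members, those at the rule's limits, genes not called and members within 400 loci of RGA1. The last 2 kinds, flanking loci, members up to 5 loci apart, genes at 100 FPKM or more in d1 and 2 others (OS01G0850700 and OS01G0611000) were added after their values were seen. Members and lists were chosen with earlier results of these data known. Steps were tested on simulated data and run in Python 3.11.15 with pandas 2.3.3.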

Additional observations from a re-analysis of the deposited data

How the results depend on the processing

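No paired analysis was possible because replicates were merged before deposit, and leaving out a replicate was likewise not run. At 3-fold the rule gave 167 genes (155 called), at 8-fold 48 (42 called), and with 1 FPKM in d1 as the level limit 231 (159 called), of which 17 were listed at 0 in WT. These follow from the limits themselves. With 10 FPKM it gave 72 genes, with equal FPKM sums 76, with the median of tested genes set to 0 110, and with 1 FPKM added to both genotypes 80. The median log2 ratio of the 107 genes was 2.42 with 1 FPKM added, 2.64 with equal sums and 2.93 with the median at 0. Leaving out or summing repeated identifiers changed nothing in the count of 107.

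Chosen after seeing the data were the windows around RGA1 (3 members within 200 loci), leaving out identifiers not ending in 00 (15 members with an adjacent member), wider bands beside members (12.8% and 9.69% called higher, for up to 2 and 5 loci), the recomputed adjustment for loci beside members (14.4% called higher, beside 4.71% of tested genes that are not members) and leaving out the most abundant member (5899.7 FPKM summed in d1). Except where a limit or window was itself changed, the cause of a difference was not tested. The limits of 0.1 and 0.2 FPKM in WT were likewise not planned settings. With depth unknown, no counting error can be set beside values near 0 in WT.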
